A study of Mus musculus with 6 samples.

Results

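The genes described here are 39 interferon-stimulated genes with antiviral functions, taken by symbol from the 24346 gene symbols of an RNA-seq table of mouse articular chondrocytes. All 39 symbols were in the table. The Sema4D group was primary articular chondrocytes from cartilage of ICR mice at postnatal day 4, cultured with semaphorin 4D, a ligand of plexin-B receptors, and the control group was the same cells cultured without it. Each group had 3 libraries of total RNA (replicates 1 to 3). ICR is an outbred stock, no genetic change is named for either group, and nothing says that replicates came from different cultures or mice, so that a p-value here speaks only of variation among the 6 libraries, possibly technical. For the protein, neither its dose, its source nor the time of culture is known here. Levels are in FPKM, a fragment count per unit of transcript length and of library size.

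Type I interferons bind the receptor chains Ifnar1 and Ifnar2, whose kinases Jak1 and Tyk2 phosphorylate transcription factors, Stat2 among them. In a complex with Irf9 these bind a promoter sequence called the interferon-stimulated response element. Interferon gamma acts through another receptor and through the gamma-activated site, another promoter sequence. The genes switched on this way sense foreign nucleic acids, block the translation, replication or release of viruses, and tune the pathway itself. Many of them also have a low level in cells that are not infected.

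Promoter sequences are given first because they hold the response element. The RefSeq promoter table of GRCm38.p6, the assembly of mm10, covers 250 bases before to 50 bases after each annotated start and had 27 of the 39 genes. A core of the response element was searched as GAAA, any 2 bases and GAAA, on both strands, matches being allowed to overlap. It was in 13 of these 27 genes (48.1%) and in 3.99% of all 27025 genes of the table. Of 48 other interferon-inducible genes in the table, from a list described below, 28 had it (58.3%). Isg15 had 3 overlapping matches, in capitals in the whole 300-base window chr4:156200769-156201068 (minus strand), between positions -78 and -57 from its start.

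Isg15: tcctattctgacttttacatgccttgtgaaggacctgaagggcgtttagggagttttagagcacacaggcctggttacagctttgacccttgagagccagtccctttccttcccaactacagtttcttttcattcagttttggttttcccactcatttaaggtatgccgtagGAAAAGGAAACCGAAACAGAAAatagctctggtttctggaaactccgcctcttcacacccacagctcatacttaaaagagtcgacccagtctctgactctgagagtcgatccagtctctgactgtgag

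Shorter windows show the same core, in capitals, in 6 further genes, each written 5′ to 3′ on the strand of the gene, so that TTTC, any 2 bases and TTTC is the core on the other strand. They are chr19:34640773-34640825 (plus strand) for Ifit1, chr19:34583361-34583428 (plus) for Ifit3, chr12:26456551-26456584 (minus) for Rsad2, chr8:71537575-71537614 (minus) for Bst2, chr11:58199510-58199543 (plus) for Igtp and chr11:58214901-58214934 (plus) for Irgm2. Ifit1 and Ifit3 each had a pair of separate matches. The Igtp and Irgm2 windows had the same base at 33 of 34 positions.
Ifit1: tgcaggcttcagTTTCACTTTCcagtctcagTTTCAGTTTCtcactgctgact
Ifit3: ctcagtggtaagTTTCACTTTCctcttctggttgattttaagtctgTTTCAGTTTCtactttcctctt
Rsad2: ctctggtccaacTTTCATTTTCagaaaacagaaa
Bst2: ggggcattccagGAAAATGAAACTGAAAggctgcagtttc
Igtp: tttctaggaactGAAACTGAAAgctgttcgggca
Irgm2: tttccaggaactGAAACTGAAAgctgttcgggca

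The gamma-activated site, searched as TTCNNNGAA on both strands, was in 9 of the 27 genes (33.3%) and in 9.55% of all genes of the table. Of the 48 other interferon-inducible genes, 9 had this site (18.75%). In Bst2 it ended inside the first response element core, and in Igtp and Irgm2 it lay just before the core. A kappaB-like sequence, GGGA, any 4 bases and CC on both strands, was in 6 of 27 (22.2%) and in 22.9% of all genes. It was in 16 of the 48 other interferon-inducible genes (33.3%). The table has 2 starts of Ifit2, both after the start of the RefSeq gene, and neither window had a match to the response element core. The window of the first, chr19:34550444-34550743 (plus strand), is printed because Ifit2 went the other way from most of the genes. It had a gamma-activated site (-241 to -233) and a kappaB-like match (-247 to -238). In the test given below, 9 of 11 tested genes without a core match rose and 2 fell. With a match, 9 of 10 rose and 1 did not pass, where 24.5% of all tested genes rose. A match describes letters only, and a window without one says nothing about binding.

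Ifit2: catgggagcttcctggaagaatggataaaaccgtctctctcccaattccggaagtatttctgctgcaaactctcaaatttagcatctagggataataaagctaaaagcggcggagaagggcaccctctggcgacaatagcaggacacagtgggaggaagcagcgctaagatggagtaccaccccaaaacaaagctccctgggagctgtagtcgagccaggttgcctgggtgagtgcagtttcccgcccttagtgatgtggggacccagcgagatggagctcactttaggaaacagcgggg

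**Figure D1:**
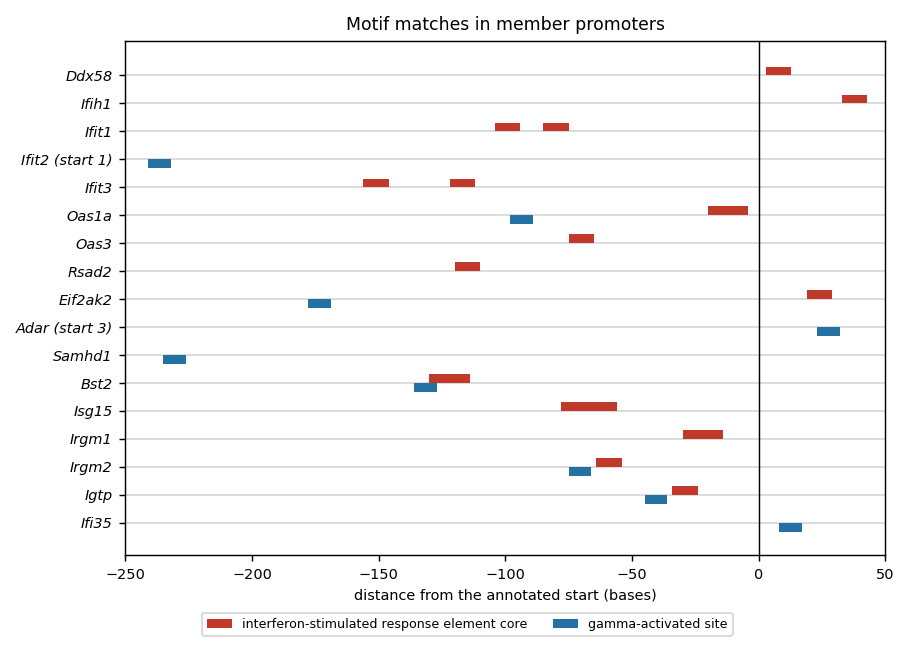
Position of motif matches in the promoter windows of the genes that had a match, with the distance in bases from the annotated start on the x axis, response element cores in red and gamma-activated sites in blue. Cores in Isg15 lie between positions -78 and -57, and those of Ddx58, Ifih1 and Eif2ak2 lie after it.

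Estimated depth was 15100000 to 17860000 fragments in Sema4D libraries and 13420000 to 17350000 fragments in control libraries. Chondrocyte markers were high in all libraries, with Col2a1 at 8796 ± 372 FPKM in Sema4D and 10506 ± 472 FPKM in control libraries (mean ± SD, n = 3 each). Of 13 chondrocyte markers, 12 were lower with Sema4D in the test given below. In that test 22.2% of all tested genes were lower and 24.5% higher. Of 14 macrophage and myeloid markers 4 were tested (1 higher, 2 lower), their summed level was 24.6 to 28.0 FPKM in Sema4D and 27.0 to 34.3 FPKM in control libraries, and the leukocyte marker Ptprc was at 0.127 FPKM or less in every library. Of 10 lymphocyte markers 7 were at 0 in all libraries, and the sum was at most 0.318 FPKM. Of 10 dendritic cell markers 3 were at 0 in all libraries, and 1 rose, Bst2, which is also among the 39 genes. Of 10 fibroblast markers 9 were tested (3 higher, 3 lower), and of 10 endothelial markers 2 were tested (2 lower). In bulk RNA, a change in cell numbers and a change in RNA per cell cannot be told apart.

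Sema4D was set against control culture to ask how chondrocyte transcripts differ. Interferon-stimulated genes were mostly higher. Their summed level was 452, 585 and 420 FPKM in Sema4D replicates 1, 2 and 3, against 260, 257 and 262 FPKM in control replicates 1, 2 and 3. All Sema4D libraries were above all control libraries, and replicate 2 stood highest. The test was limma on log2(FPKM + 1) in genes averaging 1 FPKM or more across libraries, with an adjusted p under 0.05 as the threshold, and fold changes below are on that scale, which understates changes of low genes.

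Of the 39 genes 28 reached that mean. Of those, 25 rose, 2 fell (Ifit2 and Samhd1) and 1 did not pass (Ifit3), where 24.5% of all 11603 tested genes rose, 22.2% fell and 46.7% changed either way. Rises were 52.4% of all calls, and 38.8% of them after quantile normalization. The median log2 fold change of the 28 was 1.11, and that of all tested genes 0.01. A rise by more than 1 on the log2 scale was reached by 18 of the 28 and by 3.39% of all tested genes. However, 8 of the 28 passed the filter only through their level with Sema4D, so counts over the 28 favour rises. Of the 20 with a mean of at least 1 FPKM in both groups, 18 rose and 2 fell, with a median of 1.02. Among the 11 with a control mean of at least 5 FPKM, 9 rose and the same 2 fell, with a median of 0.54. The groups did not overlap for 26 of the 28 with Sema4D higher and for 2 with Sema4D lower, where the shares of all tested genes were 29.6% and 27%. With no filter, 33 of the 39 rose, against 17.2% of 17461 genes, and Sema4D libraries lay above all control libraries for 36 of the 39, against 22.9%.

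**Figure D2:**
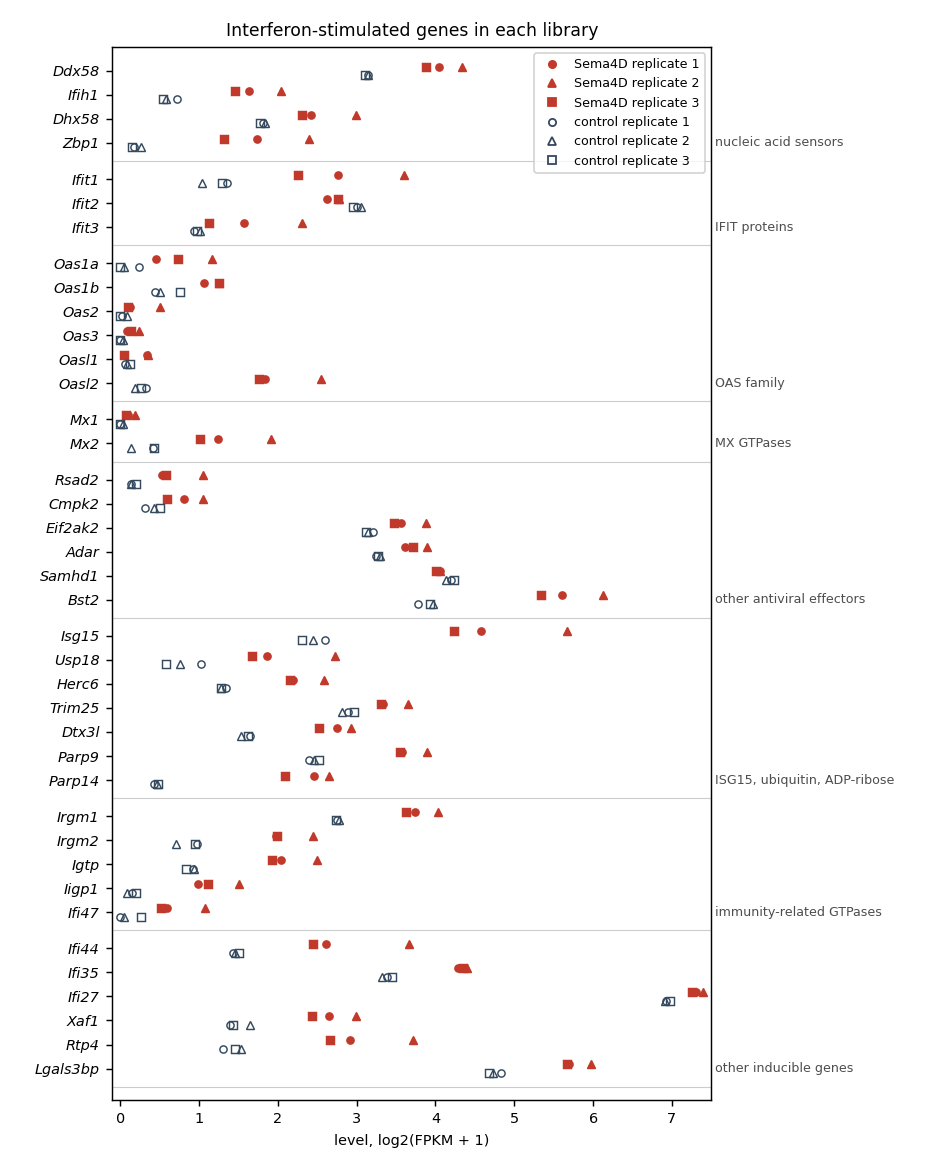
Level of each of the 39 genes in each library as log2(FPKM + 1), grouped by role, with filled red symbols for Sema4D and open dark symbols for control libraries (circle, triangle and square are replicates 1, 2 and 3). Red symbols lie to the right for all but Ifit2, Samhd1 and, by overlap, Oasl1, and the red triangle of Sema4D replicate 2 is the rightmost of the 6 symbols in 37 genes.

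Sensors of foreign nucleic acids rose in all 4 cases. Ddx58, which encodes the RNA sensor RIG-I (chr4:40203777-40239825), had 15.5, 19.1 and 13.7 FPKM in Sema4D replicates 1, 2 and 3, against 7.84, 7.87 and 7.59 FPKM in control replicates 1, 2 and 3. All libraries of a group stood apart from the other group, with a log2 fold change of 0.95 (SE 0.101, limma adjusted p = 9.7e-05). Ifih1, the sensor MDA5 of long double-stranded RNA, had 2.1, 3.12 and 1.74 FPKM with Sema4D, against 0.654, 0.495 and 0.459 FPKM in control libraries (log2 fold change 1.09, adjusted p = 0.000407). Dhx58, whose protein LGP2 modulates both, had 4.36, 6.95 and 3.94 FPKM with Sema4D, against 2.52, 2.57 and 2.43 FPKM in control (0.76, adjusted p = 0.00456). In both, Sema4D replicate 2 was the highest library and no control library reached the lowest Sema4D one. Zbp1, a sensor of Z-form nucleic acids linked to cell death, had 2.33, 4.25 and 1.48 FPKM with Sema4D, against 0.13, 0.199 and 0.105 FPKM in control (1.62, adjusted p = 0.000642). Its mean with Sema4D was 18.6 times the control mean, the largest ratio among the 28 tested genes, from about 3 to 6 fragments per control library. Without Sema4D replicate 2 it was under the filter and not tested.

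IFIT genes, whose proteins bind foreign RNA and restrain its translation, lie next to each other on chromosome 19 and split. Ifit1 (chr19:34640889-34650009) had 5.79, 11.1 and 3.79 FPKM in Sema4D replicates 1, 2 and 3, against 1.55, 1.06 and 1.45 FPKM in control replicates 1, 2 and 3. It rose with no overlap (log2 fold change 1.64, SE 0.287, limma adjusted p = 0.00181). Ifit3 (chr19:34583119-34588982) had 1.96, 3.97 and 1.18 FPKM with Sema4D, against 0.91, 1.02 and 0.966 FPKM in control. The groups did not overlap, but replicate 3 lay close to the control libraries, and the gene did not pass (0.69, SE 0.254, adjusted p = 0.0546; 0.00668 without Sema4D replicate 3, 0.128 the highest over the alternatives). Its near copy Ifit3b had 1.14, 3.01 and 0.802 FPKM with Sema4D, against 1.52, 1.21 and 1.39 FPKM in control (0.07, adjusted p = 0.838), and reads may be split between the copies. Ifit2 (chr19:34550550-34576534) had 5.16, 5.84 and 5.76 FPKM with Sema4D, against 7.06, 7.27 and 6.78 FPKM in control. Every Sema4D library was below every control library, and the gene fell (-0.29, SE 0.057, adjusted p = 0.00371).

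The OAS family, most of whose enzymes make the oligoadenylates that activate RNase L, was low, and 5 of its 6 genes here were under the filter. The other, Oasl2 (chr5:114896926-114912245), an OAS-like gene, had 2.58, 4.86 and 2.38 FPKM with Sema4D, against 0.253, 0.137 and 0.203 FPKM in control (log2 fold change 1.79, SE 0.194, limma adjusted p = 0.000112). Oas1a had 0.364, 1.24 and 0.666 FPKM in Sema4D replicates 1, 2 and 3, against 0.176, 0.0341 and 0 FPKM in control replicates 1, 2 and 3. At the estimated depth that was about 11, 35 and 17 fragments with Sema4D, against 4, 1 and 0 in control, so the groups were apart but rested on few fragments. Oas1b, a transcribed pseudogene in the C57BL/6J reference, had 1.09, 1.39 and 1.38 FPKM with Sema4D, against 0.364, 0.423 and 0.696 FPKM in control. Oas2 was at 0.0911, 0.423 and 0.0719 FPKM with Sema4D, against 0.0202, 0.0626 and 0 FPKM in control. That was about 6, 27 and 4 fragments with Sema4D, against 1, 4 and 0 in control, so the lowest Sema4D and the highest control library were level in fragments. Oas3 had 0.0615, 0.185 and 0.102 FPKM with Sema4D, against 0, 0.0253 and 0 FPKM in control. For Oas3 that was about 5, 14 and 7 fragments with Sema4D, against 0, 2 and 0 in control. Oasl1, which in mouse restrains translation of Irf7, was the only gene of the 39 whose groups overlapped: it had 0.261, 0.28 and 0.0343 FPKM with Sema4D, against 0.0387, 0.0598 and 0.0933 FPKM in control. Replicate 3 was the low Sema4D library there, at about 1 fragment.

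MX GTPases trap viral particles in the cell, and both mouse genes are transcribed pseudogenes in the C57BL/6J reference, while the libraries came from ICR mice. Mx2 had 1.36, 2.77 and 1.01 FPKM with Sema4D, against 0.335, 0.104 and 0.35 FPKM in control. It lay just under the filter with no overlap between groups. Mx1 had 0.067, 0.144 and 0.0528 FPKM with Sema4D, against 0, 0.023 and 0 FPKM in control, or about 4, 8 and 3 fragments against 0, 1 and 0.

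Among other antiviral effectors, Bst2 stood out. Bst2 (chr8:71534255-71537472), which encodes tetherin, a protein that holds budding viruses at the cell surface, had 47.6, 68.6 and 39.6 FPKM in Sema4D replicates 1, 2 and 3, against 12.7, 14.6 and 14.2 FPKM in control replicates 1, 2 and 3. It averaged 51.9 ± 14.9 FPKM with Sema4D and 13.8 ± 0.994 FPKM in control (SD, n = 3 each), with a log2 fold change of 1.8 (SE 0.168, limma adjusted p = 4.52e-05). Eif2ak2, the RNA-dependent kinase PKR that stops translation, had 10.8, 13.7 and 10.1 FPKM with Sema4D, against 8.26, 7.87 and 7.66 FPKM in control (0.48, adjusted p = 0.00387). Adar, which edits adenosine to inosine in double-stranded RNA, had 11.2, 13.9 and 12.2 FPKM with Sema4D, against 8.46, 8.78 and 8.62 FPKM in control (0.47, adjusted p = 0.000722). These were small rises in genes already present in control cells.

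Samhd1, whose enzyme breaks down the nucleotides needed for viral DNA synthesis, had 15.7, 15.6 and 15.1 FPKM with Sema4D, against 17.4, 16.6 and 17.8 FPKM in control. It fell narrowly (-0.15, SE 0.040, limma adjusted p = 0.0178), and missed the threshold without Sema4D replicate 3 (0.0568) or control replicate 3 (0.0659), in a range of 0.00301 to 0.0659 over the alternatives. Rsad2, the viperin gene whose product makes a chain-terminating nucleotide, and the nucleotide kinase gene Cmpk2 are neighbours on chromosome 12, and both were under the filter. Rsad2 had 0.45, 1.07 and 0.496 FPKM with Sema4D, against 0.103, 0.0959 and 0.15 FPKM in control. Cmpk2 had 0.745, 1.08 and 0.507 FPKM with Sema4D, against 0.248, 0.345 and 0.419 FPKM in control. Neither gene overlapped between groups, though Cmpk2 in Sema4D replicate 3 came close to control replicate 3.

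All 7 genes of the ISG15, ubiquitin and ADP-ribose group rose. Isg15 (chr4:156199424-156200818), a ubiquitin-like protein that is joined to other proteins, had 22.8, 50.1 and 17.8 FPKM in Sema4D replicates 1, 2 and 3, against 5.04, 4.43 and 3.95 FPKM in control replicates 1, 2 and 3. Its log2 fold change of 2.38 (SE 0.313, limma adjusted p = 0.000362) was the largest of the 28, and its SE was the largest too. With a pseudocount of 0.1 in place of 1, Oasl2 (3.45), Zbp1 (3.41) and Parp14 (3.21) exceeded Isg15 (2.59). Usp18, which removes Isg15 from proteins and dampens the interferon receptor, had 2.63, 5.61 and 2.19 FPKM with Sema4D, against 1.04, 0.697 and 0.496 FPKM in control (1.30, adjusted p = 0.00342). Herc6, the main Isg15 ligase in mouse, had 3.58, 5.02 and 3.47 FPKM with Sema4D, against 1.54, 1.43 and 1.43 FPKM in control (1.01, adjusted p = 0.000145). In each of these, replicate 2 was the high Sema4D library and the groups were apart.

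Trim25, a ubiquitin ligase that acts on RIG-I, rose least in the group, with 9.1, 11.6 and 8.88 FPKM with Sema4D, against 6.42, 6.06 and 6.79 FPKM in control (0.54, limma adjusted p = 0.00162). Parp9 (chr16:35938470-35972621) and Dtx3l (chr16:35926515-35939027), which encode partners in a ubiquitin and ADP-ribose complex, overlap head to head, so without the strand setting some reads cannot be assigned. Parp9 had 10.9, 13.8 and 10.7 FPKM with Sema4D, against 4.27, 4.48 and 4.74 FPKM in control (1.21, adjusted p = 1.18e-05). Dtx3l had 5.71, 6.61 and 4.75 FPKM with Sema4D, against 2.14, 1.90 and 2.08 FPKM in control (1.13, adjusted p = 3.31e-05). The fold changes of the pair were close, and both were steadier across Sema4D libraries than Isg15. Parp14, an ADP-ribosyltransferase gene of the same region (chr16:35831892-35871518), had 4.50, 5.25 and 3.27 FPKM with Sema4D, against 0.346, 0.381 and 0.388 FPKM in control (1.94, SE 0.132, adjusted p = 6.39e-06). Its Sema4D mean was 11.7 times the control mean.

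Immunity-related GTPases, which attack or protect the membranes around intracellular microbes and are known chiefly as interferon gamma targets, were apart between groups in all 5 genes. Irgm1 (chr11:48865245-48871420) had 12.4, 15.4 and 11.3 FPKM with Sema4D, against 5.72, 5.84 and 5.67 FPKM in control (log2 fold change 1.05, limma adjusted p = 3.78e-05). Igtp had 3.13, 4.67 and 2.79 FPKM with Sema4D, against 0.898, 0.915 and 0.788 FPKM in control (1.26, adjusted p = 0.000141). Irgm2 had 2.92, 4.43 and 2.96 FPKM with Sema4D, against 0.962, 0.640 and 0.936 FPKM in control (1.25, adjusted p = 0.00013). Igtp and Irgm2 had nearly equal levels and changes. Their GENCODE M21 gene models overlap on the same strand, so the authors' quantification may share reads between them. Any link to their near-identical promoter windows above was not tested. Iigp1, under the filter, had 0.989, 1.83 and 1.15 FPKM with Sema4D, against 0.108, 0.0628 and 0.153 FPKM in control. Ifi47, also under it, had 0.513, 1.10 and 0.434 FPKM with Sema4D, against 0, 0.0377 and 0.196 FPKM in control.

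The other 6 inducible genes rose. Ifi27 was the most abundant of the 39, with 157, 168 and 151 FPKM in Sema4D replicates 1, 2 and 3, against 121, 120 and 124 FPKM in control replicates 1, 2 and 3. Its log2 fold change was 0.38 (SE 0.040, limma adjusted p = 0.000102), the smallest of the rises. Ifi35 had 18.5, 20.1 and 19.4 FPKM with Sema4D, against 9.41, 8.97 and 9.96 FPKM in control (0.96, SE 0.050, adjusted p = 1.32e-06). It had the smallest adjusted p of the 28 and little spread within groups. Lgals3bp, which encodes a secreted galectin-binding protein, had 50.8, 61.7 and 49.9 FPKM with Sema4D, against 27.4, 25.6 and 24.6 FPKM in control (1.03, adjusted p = 1.37e-05).

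Rtp4 had 6.53, 12.1 and 5.31 FPKM with Sema4D, against 1.47, 1.89 and 1.75 FPKM in control (1.66, limma adjusted p = 0.000536). Ifi44 had 5.10, 11.7 and 4.46 FPKM with Sema4D, against 1.70, 1.74 and 1.85 FPKM in control (1.44, adjusted p = 0.00285). Xaf1, a gene linked to apoptosis, had 5.26, 6.93 and 4.42 FPKM with Sema4D, against 1.62, 2.13 and 1.70 FPKM in control (1.20, adjusted p = 0.00015). In Rtp4 and Ifi44 replicate 2 was far above the other Sema4D libraries, which were still above every control library.

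**Figure D3:**
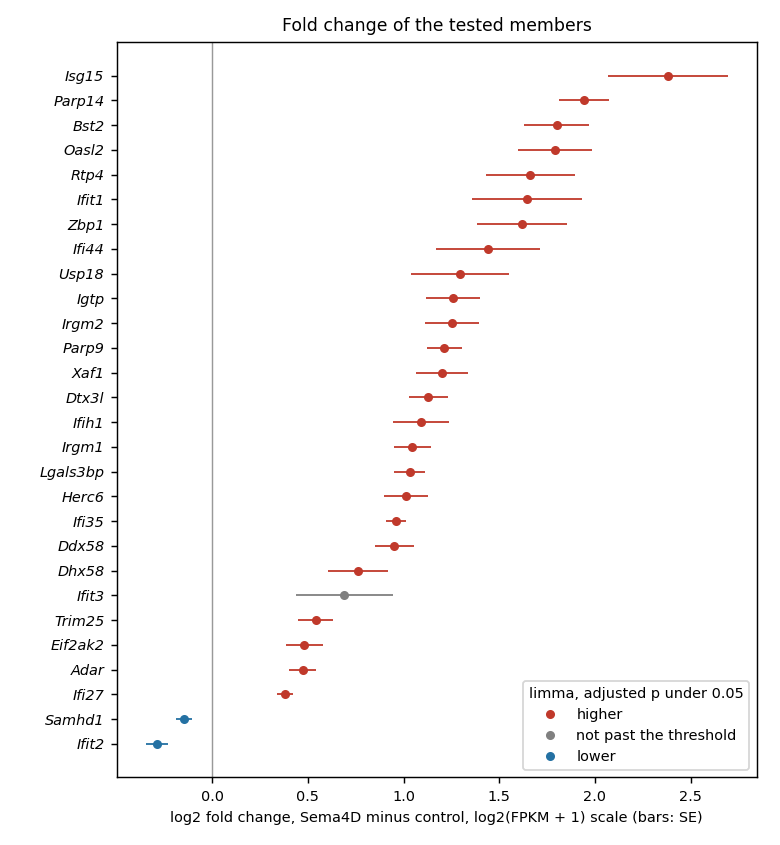
Log2 fold change (Sema4D minus control) with its SE for the 28 tested genes, coloured by the limma call. Values run from -0.29 for Ifit2 to 2.38 for Isg15, and the bars are widest for genes in which Sema4D libraries differed most.

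The Sema4D libraries differed among themselves in these genes more than the control libraries did. Replicate 2 was the highest Sema4D library in 38 of the 39 genes, Samhd1 being the exception, while it was the highest in 33.2% of all tested genes. Replicate 3 was the lowest in 30 of the 39 and in 34.5% of all tested genes. The gap is the log2(FPKM + 1) of a library minus the mean of the other 2 of its group. Its median over the 39 genes was -0.15, 0.41 and -0.30 in Sema4D replicates 1, 2 and 3, against -0.01, -0.01 and 0.01 in control replicates 1, 2 and 3. The added 1 shrinks the spread at low levels, where many control values lie. In the 11 genes with a control mean of at least 5 FPKM, the Sema4D medians were -0.12, 0.29 and -0.16. No control gap of those 11 genes was beyond 0.17 in size. Over all tested genes the median gap of Sema4D replicate 2 was 0.00. No group label, batch or treatment detail separates this library from the other 2, and the spread was described, not tested.

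**Figure D4:**
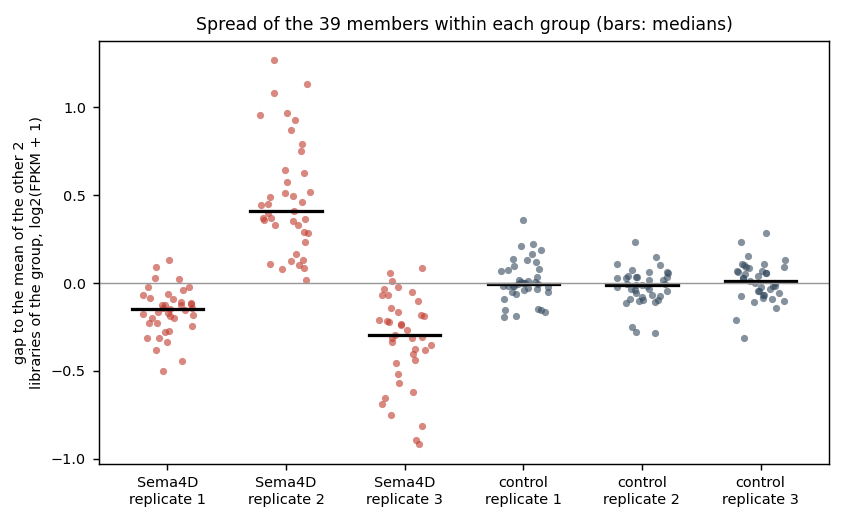
Gap of each library to the mean of the other 2 libraries of its group on the log2(FPKM + 1) scale, with 1 point per gene for the 39 genes and bars at the medians. The Sema4D replicate 2 points lie from 0.02 to 1.27, while no control gap is beyond 0.36 in size.

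The gap of Sema4D replicate 2 differed widely between genes. Isg15 had the largest, 1.27, followed by Ifi44 (1.13), Ifit1 (1.08), Ifit3 (0.97), Usp18 (0.96), Rtp4 (0.93), Zbp1 (0.87) and Oasl2 (0.75) among tested genes. In FPKM, Isg15 in replicate 2 was 2.46 times the mean of replicates 1 and 3. That ratio was larger for Ifit3 (2.53) among tested genes and for Oas2 (5.2), which was under the filter. The smallest gaps were those of Samhd1 (0.02), Ifi35 (0.08), Ifit2 (0.08) and Ifi27 (0.12). Ranked by this gap over all 11603 tested genes, 10 of the first 50 and 15 of the first 100 were among the 28 tested genes described here. Genes with a response element core in the promoter had a median gap of 0.50 (13 genes, 0.13 to 1.27), and the 14 without it had 0.31 (0.02 to 1.13), so the ranges overlapped. Their median log2 fold changes, taken with no filter so that every gene counts, were 1.05 and 0.79.

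The 10 other protein-coding genes with the largest gap of Sema4D replicate 2 were Rpl26, Apol9b, Ifit3b, Ass1, Irf7, Akr1b3, Phf11d, Slfn8, C8g and Tsacc. Ifit3b, Irf7, Phf11d and Slfn8 were on the interferon lists described next. Rpl26 is listed at 0 FPKM and Akr1b3 at 0.000475 FPKM in Sema4D replicate 1, so their gaps rest on that library. Irf7, a transcription factor that amplifies interferon production, had 7.02, 13.3 and 6.23 FPKM with Sema4D, against 2.43, 2.73 and 1.99 FPKM in control (log2 fold change 1.48, limma adjusted p = 0.000972). Phf11d had 2.89, 5.75 and 3.02 FPKM with Sema4D, against 1.08, 1.04 and 0.721 FPKM in control (1.29, adjusted p = 0.000967). Both rose with no overlap and with replicate 2 high, as in Isg15.

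Of 21 interferon genes themselves, 19 were at 0 in all 6 libraries, Ifnb1, Ifng and all but 1 of the listed interferon alpha genes included. Ifna13 and Ifnz were the others, and the summed level was at most 0.0888 FPKM in a Sema4D library and at most 0.194 FPKM in a control library. At this depth 1 fragment on 1 kilobase was worth 0.056 to 0.0745 FPKM, more on a shorter transcript and less on a longer one. A level under 1 fragment per library was not detectable.

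Receptors and their kinases and STATs rose in 11 of 12 genes, with a median log2 fold change of 0.67. The other was under the filter (Ifnlr1, of the lambda receptor). Over all tested genes 24.5% rose. The receptor chain Ifnar1 had 18.6, 18.6 and 18.5 FPKM in Sema4D replicates 1, 2 and 3, against 11.5, 10.8 and 11.6 FPKM in control replicates 1, 2 and 3 (0.67, limma adjusted p = 3.26e-06). Its partner Ifnar2 had 46.7, 46.9 and 46.4 FPKM with Sema4D, against 25.8, 22.8 and 23.9 FPKM in control (0.92, adjusted p = 9.3e-07). The Sema4D libraries were nearly equal in both genes. Stat2 had 12.9, 17.1 and 11.7 FPKM with Sema4D, against 7.65, 7.61 and 8.02 FPKM in control (0.75, adjusted p = 0.000859). Irf9 had 15.3, 20.9 and 13.4 FPKM with Sema4D, against 11.1, 9.24 and 10.3 FPKM in control (0.62, adjusted p = 0.00684). Both genes, whose products act together at the response element, were highest in Sema4D replicate 2, with gaps of 0.45 and 0.52, while the gaps of Tyk2 and Jak2 were -0.05 and 0.08.

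Of 8 interferon regulatory factor genes, 4 rose, Irf3 did not pass (0.00, limma adjusted p = 0.979) and 3 were under the filter. Over all tested genes 24.5% rose. Irf5, 1 of the rises, had a control mean of 0.405 FPKM and passed the filter only through its level with Sema4D. Of the 4 with a mean of at least 1 FPKM in both groups, 3 rose. Irf1, which is also a target of NF-kappaB, had 39.3, 37.2 and 38.0 FPKM with Sema4D, against 7.42, 6.91 and 7.83 FPKM in control. Its log2 fold change (2.23, limma adjusted p = 7.55e-09) was above that of every tested gene among the 39 except Isg15 on the log2(FPKM + 1) scale. As a ratio of group means, Irf1 (5.17) was below Zbp1 (18.6), Oasl2 (16.6), Parp14 (11.7) and Isg15 (6.76). Irf1 had no excess in replicate 2 (gap -0.05), unlike Irf7 (gap 0.91). Of 16 adaptors and kinases that induce interferon, 9 rose, 3 did not pass and 4 were under the filter (median 0.74). That compares with rises in 24.5% of all tested genes. Ikbke, a kinase of the pathway, had 21.0, 20.3 and 20.1 FPKM with Sema4D, against 6.45, 6.67 and 6.40 FPKM in control (1.52, adjusted p = 2.07e-08), again with little spread.

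Of 62 other interferon-inducible genes, 34 rose, 5 did not pass and 23 were under the filter, with a median of 1.19 over the tested ones (24.5% of all tested genes rose). Of these 39 tested genes 13 had a control mean under 1 FPKM, which favours rises, and of the other 26, 21 rose and 5 did not pass, with a median of 0.87. Several rose more than any of the 39: Gbp6, a guanylate-binding protein gene, had 31.6, 32.4 and 28.3 FPKM with Sema4D, against 0.162, 0.0974 and 0.203 FPKM in control (log2 fold change 4.78, limma adjusted p = 4.28e-10). The chemokine gene Cxcl10 had 27.8, 30.4 and 20.8 FPKM with Sema4D, against 0.25, 0.129 and 0.201 FPKM in control (4.50, adjusted p = 2.89e-08). Their gaps in replicate 2 were 0.11 and 0.33, and the median gap of the 62 genes was 0.12, against 0.41 for the 39. In the 62 genes too, replicate 2 was most often the highest Sema4D library (45 genes) and replicate 3 the lowest (42 genes). Among 9 brakes on interferon signalling, 4 rose, among them Socs3 (1.49), and Pias1 fell (-0.18, limma adjusted p = 0.0291). Of the rest, 2 did not pass and 2 were under the filter. Over all tested genes 24.5% rose and 22.2% fell. The fall of Pias1 was lost with no filter, with the replicate block and in 4 of the 6 fits that left out a library.

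**Figure D5:**
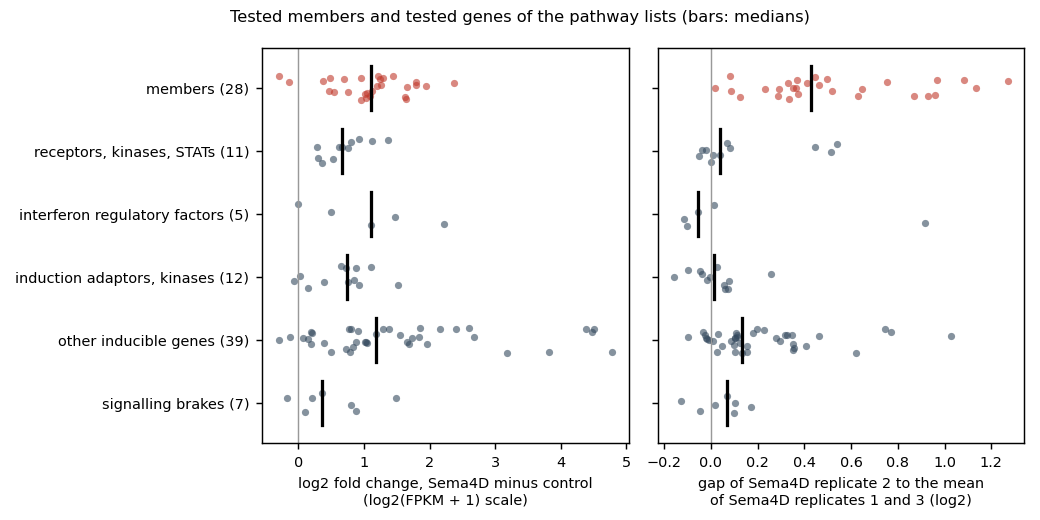
Log2 fold change (left) and gap of Sema4D replicate 2 (right) for the tested genes among the 39 (red) and of 5 pathway lists (dark), with 1 point per gene, bars at the medians and the number of tested genes in brackets. The median gap is 0.43 for the 28 tested genes among the 39, and Stat2 and Irf9 (0.45 and 0.52) lie to the right in the row of the receptors, as does Irf7 (0.91) in that of the regulatory factors.

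Without Sema4D replicate 2, 27 of the 39 genes were tested, 24 rose, the same 2 fell and the median log2 fold change was 0.94. Zbp1 was under the filter in that fit, in which 21.6% of all tested genes rose. The log2 fold change of Isg15 was 1.96 without replicate 2, that of Ifit1 1.28 and that of Ifi44 1.06. Ifit3 had 0.37 without it (limma adjusted p = 0.068).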

How the data were processed

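RNA-seq was done on 3 Sema4D and 3 control libraries of mouse articular chondrocytes. The authors deposited FPKM per gene symbol, 1 column per library, and TopHat2 2.0.13, Bowtie2 2.2.3, SAMtools 0.1.19, Cufflinks 2.2.1 and build mm10 are named in the submitters' processing notes with no role or order. Columns named as stimulated were taken as Sema4D, the only stimulated group. Annotation, strand setting and filters are not given in the sources used here. No count test was applied, the values being FPKM. Depth came from low FPKM values of 1681 genes with 1 transcript: with 200 bases taken off each GENCODE M21 length, 79.8% to 86.0% of these were within 0.15 of whole fragments, too few to recover reads. Of 49 values of the 39 genes under 20 estimated fragments, 73.5% did. Values were transformed to log2(FPKM + 1), and the 11603 genes averaging 1 FPKM or more were fitted with limma 3.58.1 in R 4.3.3 (lmFit, eBayes with trend, two-sided, Benjamini-Hochberg over all tested genes). The fit was tested on simulated data. Alternatives were a pseudocount of 0.1, no filter, a mean of at least 5 FPKM, quantile and median-of-ratios scaling, a replicate block and each library left out. Positions are those of RefSeq genes in GRCm38.p6. The genes and the lists (interferon ligands, receptors, regulatory factors, induction adaptors, other inducible genes, brakes and cell type markers) were chosen with earlier results of these data known. Genes named were the 39, those on the lists, and the 10 others with the largest gap of Sema4D replicate 2. Figures were drawn with matplotlib 3.10.9 in Python 3.11.15.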

Additional observations from a re-analysis of the deposited data

How the results depend on the processing

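Of the 28 tested genes, 26 kept their direction and their side of the threshold under every alternative that could be run for them; Ifit3 passed with a pseudocount of 0.1 (adjusted p = 0.0407), with the replicate block (0.0324) and without Sema4D replicate 3, and Samhd1 missed it in the 2 fits given above. No direction reversed. With a pseudocount of 0.1 the median of the tested genes was 1.40, and 7 genes had a log2 fold change over 1.5 times that given above: Oasl2, Zbp1, Parp14, Ifih1 (1.90), Usp18 (2.01), Irgm2 (1.90) and Ifit3 (1.05). With a mean of at least 5 FPKM, 13 of the 39 genes were tested and 11 rose, where 27.3% of all 8523 genes tested rose. The groups did not overlap for any of the 13. In the fit given above they did not overlap for 29.6% of genes with Sema4D higher and 27% with it lower. Of the other inducible genes, 20 rose with a mean of at least 5 FPKM. Leaving out 1 library at a time, 24 to 26 of the 39 genes rose and 1 to 2 fell, while 21.3% to 22.9% of all tested genes rose. The single fall among the brakes, Pias1, was lost (0) with no filter and with the replicate block, and in 4 of 6 fits with a library left out (0 to 1); the other inducible genes then had 0 to 1 falls, and after quantile normalization 1 induction gene fell. The replicate block gave 4994 calls in place of 5422. Same-numbered libraries correlated at 0.14, -0.08 and -0.05 in their deviations from the group means, and differently numbered ones at -0.07 to 0.14. With 3 libraries per group, these values cannot decide whether the numbers pair the libraries. The cause of each difference between settings was not tested. Depth limits the 11 genes under the filter, which rested on 0 to 103 estimated fragments per library.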
